A study of Mus musculus with 26 samples.

Results

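Within the bone marrow compartment called PreGM (pre-granulocyte-macrophage progenitors), cells in which a Gata1 reporter was on were compared with cells in which it was off. The comparison used the 3 arrays labelled PreGM GFP+ and the 3 labelled PreGM GFP-, 6 of the 26 arrays, and took in every probe set that names 1 gene. That gave 19938 genes, of which 3854 belonged to lists of transporters, receptors, signalling genes and metabolic enzymes. In 629 of these 3854 the 3 arrays of the groups did not overlap (16.3%, against 12.3% over all genes). All animals carried 1 copy of a Gata1-EGFP transgene (genotype Gata1-EGFP Tg/+), in which enhanced green fluorescent protein reports on Gata1, and were 8 to 15 weeks old, with no treatment named. Both PreGM groups were sorted as Lin- and cKit+ cells that were negative for Sca1, FcgRII/III, CD41, CD105 and CD150, and the gates differed only in green fluorescence. The other groups were HSC GFP- (stem cells, 3 arrays), LMPP (4 arrays) and CLP (3 arrays), which are lymphoid-primed and common lymphoid progenitors, GMP GFP- (4 arrays) and GMP GFP+ (3 arrays), which are granulocyte-macrophage progenitors, and PreMegE (3 arrays), the progenitor of megakaryocytes and red cells. The stretch of regulatory DNA that drives the reporter is not named in the labels, which also do not say whether replicates came from separate animals. The p-values below therefore measure the spread between replicate arrays, which may be technical. That spread was estimated for each gene over all 26 arrays, not over the 6 PreGM arrays alone. PreGM GFP- spread most of the groups, so the p-values can understate the spread in PreGM.

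GATA1 is a zinc finger transcription factor that binds the core GATA and is required for red cells, megakaryocytes, mast cells and eosinophils, while the ETS factor PU.1 drives the granulocyte, monocyte and lymphoid programmes, and each can oppose the other. PreGM cells lie before the GMP stage, where marrow progenitors commit to neutrophils and monocytes. The membrane and metabolic genes described here are the means by which such cells sense cytokines, move ions, iron and lipids, and make energy and lipid mediators.

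The stretches of DNA just before the start site are shown for the 3 largest rises and the 3 largest falls among the listed genes that the RefSeq promoter table (GRCm38.p6) holds with 1 start, because the groups differ in the reporter of a DNA-binding factor. Each has 250 bases, reads 5′ to 3′ on the strand of the gene and ends at the base before the start. The motifs searched, on both strands, were that of GATA factors, spelled AGATAA with the alternative spelling TGATAA, that of KLF1 and its relatives (KLF), spelled CACACCC, and that of PU.1, spelled GAGGAAG. No spelling contains another, though they can overlap at their ends, and capitals mark the matches.
Cd55 (chr1:130462745-130462994, minus strand): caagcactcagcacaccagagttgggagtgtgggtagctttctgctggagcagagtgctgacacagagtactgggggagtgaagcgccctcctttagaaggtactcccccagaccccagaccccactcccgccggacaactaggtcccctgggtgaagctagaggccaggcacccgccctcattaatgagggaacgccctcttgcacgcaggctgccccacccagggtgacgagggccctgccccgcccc
Ms4a2 (chr19:11623720-11623969, minus strand): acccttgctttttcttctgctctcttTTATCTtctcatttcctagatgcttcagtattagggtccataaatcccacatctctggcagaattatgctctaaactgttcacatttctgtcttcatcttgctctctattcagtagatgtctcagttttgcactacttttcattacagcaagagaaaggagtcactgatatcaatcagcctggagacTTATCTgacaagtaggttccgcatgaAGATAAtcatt
Mfsd2b (chr12:4874360-4874609, minus strand): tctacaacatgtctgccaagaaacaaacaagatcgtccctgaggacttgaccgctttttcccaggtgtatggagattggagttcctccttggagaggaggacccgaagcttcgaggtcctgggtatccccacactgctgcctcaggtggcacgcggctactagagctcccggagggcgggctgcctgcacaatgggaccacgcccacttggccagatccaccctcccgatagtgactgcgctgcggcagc
Ly86 (chr13:37345095-37345344, plus strand): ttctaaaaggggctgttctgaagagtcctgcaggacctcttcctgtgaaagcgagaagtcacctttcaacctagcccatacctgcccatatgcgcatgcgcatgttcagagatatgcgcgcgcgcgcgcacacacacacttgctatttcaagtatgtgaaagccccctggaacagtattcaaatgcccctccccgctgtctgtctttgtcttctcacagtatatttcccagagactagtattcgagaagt
Emb (chr13:117220323-117220572, plus strand): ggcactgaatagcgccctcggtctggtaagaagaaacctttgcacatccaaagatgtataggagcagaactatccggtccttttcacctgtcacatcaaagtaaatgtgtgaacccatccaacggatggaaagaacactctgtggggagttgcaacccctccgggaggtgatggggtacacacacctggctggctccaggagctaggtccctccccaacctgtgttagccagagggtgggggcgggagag
Flt3 (chr5:147400490-147400739, minus strand): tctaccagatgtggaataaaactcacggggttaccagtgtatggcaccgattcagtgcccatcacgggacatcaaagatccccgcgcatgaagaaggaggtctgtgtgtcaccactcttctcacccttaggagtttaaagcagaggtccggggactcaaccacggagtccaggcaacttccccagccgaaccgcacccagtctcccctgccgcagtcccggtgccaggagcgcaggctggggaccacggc
Cd55, Ms4a2 and Mfsd2b rose in PreGM GFP+, and Ly86, Emb and Flt3 fell. Ms4a2, the beta chain of the high-affinity IgE receptor, held 3 GATA matches, and the other 5 stretches held none of the 3 motifs. Over the 12977 genes with 1 start in the table, 14.4% held a GATA match, 7.41% a KLF match and 10.3% a PU.1 match. Of the 40 listed genes that rose and have 1 start there, 20% held a GATA match, 7.5% a KLF match and 25% a PU.1 match, and of the 54 that fell, 16.7%, 3.7% and 31.5% did. A match in this window is a run of letters and no evidence of binding.

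Values are log2 signals after RMA (robust multi-array average), so a difference of 1 is a doubling of signal on that scale. Array medians lay between 6.42 and 6.70, and the median of all values was 6.61. A group mean under that median is not shown to exceed background, and no fold is given from it. The lower group had such a mean in 26 of the 69 listed genes that rose and 32 of the 89 that fell, and not all of these are marked below. Replicates of PreGM GFP- spread most of the 8 groups (median SD over genes 0.234, against 0.153 in PreGM GFP+), and their arrays correlated at 0.950 to 0.976, against 0.972 to 0.984 in PreGM GFP+. PreGM GFP- array 2 lay nearest to the other group in 76 of the 158 listed genes that passed the test. In bulk RNA, fewer cells of a type and less RNA per cell cannot be told apart.

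Gata1 itself followed the labels. It read 6.36, 6.70 and 7.14 in PreGM GFP- and 8.70, 8.01 and 8.74 in PreGM GFP+, with no overlap, and was 1.75 log2 higher in PreGM GFP+ (SE 0.19, adjusted p = 2.36e-06). Of the genes behind the gate, Itga2b, which encodes CD41, read 8.53, 8.50 and 8.84 in PreGM GFP+ against 7.62, 7.45 and 7.43 in PreGM GFP-, although both groups were sorted as CD41-. It rose by 1.13 (adjusted p = 0.00021). Slamf1 (CD150) was called higher (0.98, adjusted p = 0.0427) with both group means below the median, so neither is shown to exceed background. Kit, Eng (CD105) and Fcgr3 differed by 0.64, -0.16 and -0.34, none past the threshold. Of the markers of other lineages, 6 of 11 erythroid, 3 of 11 megakaryocyte, 4 of 16 mast cell and basophil and 1 of 8 eosinophil genes rose, and none of these fell. In the other direction 5 of 16 neutrophil, 9 of 16 monocyte and 4 of 13 dendritic cell genes fell, and none rose. Over all genes 0.908% were called higher and 1.14% lower, and 1 call in so short a list is no result about that list. Mean signals over these lists ran from 6.19 to 6.55 in PreGM GFP- and from 7.20 to 7.39 in PreGM GFP+ for erythroid genes, and from 8.42 to 8.56 and from 6.48 to 6.50 for monocyte genes. Of the neutrophil genes, Mpo, Elane, Prtn3 and Ctsg, which encode proteins of primary granules, fell by 1.64, 2.26, 1.99 and 2.78. Ltf, Camp, Ngp, Lcn2, S100a8 and S100a9, which are made later in neutrophil maturation, differed by -0.68 to 0.20, none called. The PreGM GFP+ arrays lay far apart, lowest on array 1, in S100a9 (7.08, 10.07 and 11.03), S100a8 (6.90, 8.94 and 10.14) and Ngp (6.31, 8.39 and 9.52). The SEs of these differences were 0.84, 0.62 and 0.81, so the lack of a call does not show that the genes were unchanged. Among markers of more mature cells, Alas2 of red cells read 6.62, 6.80 and 7.10 in PreGM GFP- and 7.12, 6.93 and 7.26 in PreGM GFP+, and Ppbp of platelets 4.53, 4.63 and 4.45 and 4.51, 4.51 and 4.50, neither called. Of 12 B cell, 13 T and NK cell and 12 stroma and endothelium genes, 0, 1 and 1 fell and none rose. Without a call, 11 B cell genes were lower and 1 higher (median difference -0.49), and arrays lay apart in 4, all lower (33.3%, against 12.3% over all genes). Within PreGM GFP-, Blnk read 7.16, 6.97 and 5.63 and Ebf1 6.31, 6.77 and 5.13, both with group means below the median. Vpreb1 read 11.59, 11.81 and 9.14 there and Vpreb3 7.70, 8.52 and 7.08, both with group means above it. In PreGM GFP+ they read 9.29, 10.55 and 8.53 and 7.13, 7.30 and 7.62, overlapping and not called. Of the 12 B cell genes, 7 had PreGM GFP- means below the median. The part of these marker differences in the results below was not tested.

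Over all genes, limma's moderated test called 408 of 19938 genes different between PreGM GFP+ and PreGM GFP- at a Benjamini-Hochberg adjusted p under 0.05 (2.05%), 181 higher (0.908%) and 227 lower (1.14%) in PreGM GFP+. With the spread estimated from the PreGM arrays alone, 89 genes were called higher and 128 lower. The arrays of the groups did not overlap in 2450 genes (12.3%), 1289 higher (6.47%) and 1161 lower (5.82%). Among the 3854 genes of the 4 classes, 69 rose and 89 fell (4.10% called), against 1.55% of the 16084 genes outside them. Arrays did not overlap in 16.3% of the listed genes and in 11.3% of the rest. The share called was 2.36% of 806 transporters, 7.56% of 794 receptors, 2.64% of 1173 signalling genes and 4.42% of 1085 metabolic genes, so the shares of transporters and signalling genes were near that over all genes and that of receptors was the highest of the 4. The lists and their members were chosen with earlier results of these data known, so these shares may be set in part by that choice. Of the 629 listed genes whose arrays did not overlap, 156 were called and 473 were not. Every gene named below as having risen or fallen had arrays that did not overlap, except Plcg2 and Arhgef6. Single arrays moved these counts: 118 genes were called higher when PreGM GFP+ array 3 was left out, 134 lower when PreGM GFP- array 1 was, and 146 lower when PreGM GFP+ array 1 was. The counts of genes whose arrays did not overlap cannot fall when an array is left out, so their rise alone is no result. Without PreGM GFP- array 2, arrays did not overlap in 4146 genes that were higher and 2363 that were lower, and 2827 were higher without PreGM GFP+ array 2, 2143 higher without PreGM GFP- array 1, and 2428, 1856 and 1781 lower without PreGM GFP- array 1, PreGM GFP- array 3 and PreGM GFP+ array 2.

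Among transporters, 12 of 806 genes rose in PreGM GFP+ and 7 fell. Those that rose included 3 water channels, 3 genes that handle iron, 2 lipid exporters and a subunit of the sodium pump. The largest transporter difference was in Atp1b2, a beta subunit of the sodium-potassium pump that keeps cell sodium low. Atp1b2 read 6.47, 6.91 and 6.91 on the PreGM GFP- arrays and 11.20, 10.01 and 10.92 on the PreGM GFP+ arrays. The 3 PreGM GFP+ arrays were far above the others, a difference of 3.95 (SE 0.20, 15.4-fold, adjusted p = 1.65e-11). Of the other beta subunits, Atp1b1 differed by -0.51 and Atp1b3 by -0.26, with overlapping arrays and no call. Fxyd5, a small regulator of the same pump, fell by 0.71 (adjusted p = 0.000342). Of the other P-type pumps, Atp13a3, which moves polyamines, rose by 0.92, and the lipid flippase Atp8b4 fell by 2.0, with 10.26, 9.79 and 10.67 in PreGM GFP- and 8.22, 7.70 and 8.81 in PreGM GFP+. In all, 2 of 43 pump genes rose and 2 fell.

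Lipid export was represented by Mfsd2b, the carrier that releases sphingosine-1-phosphate from red cells and platelets, and by Abcb4, which moves phosphatidylcholine across the membrane. Mfsd2b read 6.49, 6.80 and 6.63 in PreGM GFP- and 10.08, 10.37 and 10.31 in PreGM GFP+. All PreGM GFP+ arrays stood above 10 and all PreGM GFP- arrays below 7, a difference of 3.61 (SE 0.15, 12.2-fold, adjusted p = 6.23e-13). Its relative Mfsd2a read 6.08, 6.53 and 6.27 and 6.27, 6.29 and 6.31, and Spns2, the other sphingosine-1-phosphate exporter, differed by 0.57 with arrays apart but was not called (adjusted p = 0.0651). Abcb4 read 8.70, 8.38 and 8.85 in PreGM GFP+ against 6.18, 6.60 and 6.75 in PreGM GFP-, again without overlap, and rose by 2.13 (adjusted p = 2.91e-07). Abcd2, which takes fatty acids into peroxisomes, fell by 1.76, and the drug exporter Abcb1b had arrays apart at -1.52 without being called (adjusted p = 0.0595).

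Aquaporins, the channels for water and small solutes, had 3 of 12 genes called, all higher. Aqp9, which also passes glycerol, read 6.74, 6.74 and 6.34 on the PreGM GFP- arrays and 9.77, 9.69 and 9.87 on the PreGM GFP+ arrays. Aqp1, the water channel of red cells, read 6.82, 7.12 and 7.29 in PreGM GFP- and 9.37, 9.57 and 9.40 in PreGM GFP+. Aqp11, found in internal membranes, read 8.21, 9.24 and 7.86 in PreGM GFP+ against 6.58, 5.76 and 6.68 in PreGM GFP-. In each the PreGM GFP+ arrays lay wholly above, by 3.17, 2.37 and 2.10 (adjusted p = 1.49e-07, 5.48e-09 and 0.00146).

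Of 45 metal ion carriers and their partners, 3 rose and 1 fell, and the 3 that rose handle iron. Slc11a2, which brings ferrous iron across membranes, read 6.70, 6.65 and 6.69 on the PreGM GFP- arrays and 8.21, 8.23 and 8.13 on the PreGM GFP+ arrays. The groups were tight and apart, with a difference of 1.51 (SE 0.21, 2.85-fold, adjusted p = 0.000127). Slc40a1, the iron exporter ferroportin, rose by 1.19 and Tfr2, an iron-sensing transferrin receptor, by 0.89, both from PreGM GFP- means below the median. Tfrc, the receptor that supplies most transferrin iron to red cell precursors, read 8.89, 9.04 and 9.09 and 8.77, 9.21 and 8.80 with overlap. The zinc importer Slc39a6 fell by 1.02 (adjusted p = 0.00132), and Slc41a3 (0.40) and Slc39a8 (0.40) were higher, Slc30a4 (-0.82) and Slc41a1 (-0.71) lower, with arrays apart and no call.

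The remaining transporters gave few calls. Slc18a2, which loads monoamines such as histamine into vesicles, read 8.24, 8.39 and 7.82 in PreGM GFP- and 9.88, 9.47 and 10.01 in PreGM GFP+, and rose by 1.63 (adjusted p = 1.72e-05). Slc45a3, a sugar carrier, rose by 0.69, and Slco3a1, an organic anion carrier, fell by 0.95. Of 267 ion channel genes none rose and 2 fell. Gria3, a subunit of AMPA-type glutamate receptors, read 6.64, 6.78 and 7.41 in PreGM GFP+ against 10.24, 10.09 and 10.33 in PreGM GFP-, a fall of 3.27 (SE 0.35, 9.67-fold lower, adjusted p = 2.7e-06) with no overlap. The potassium channel Kcnj2 was called lower (-0.82), although both group means lay below the median and neither is shown to exceed background. No gene was called among 60 amino acid carriers, 46 mitochondrial carriers, 43 nucleoside and vitamin carriers, 56 anion and proton exchangers or 24 subunits of the vesicle proton pump, where arrays were apart in 6, 8, 4, 4 and 3 genes. These are 10%, 17.4%, 9.3%, 7.14% and 12.5%, against 12.3% over all genes. With 2.05% of all genes called, a list of this size without a call is no result about its genes. Slc38a5 (0.55, adjusted p = 0.0919) was the amino acid carrier with the largest rise whose arrays were apart, and Slc25a36 (0.76) and Slc25a12 (-0.91) had the largest differences of that kind among mitochondrial carriers. Of the 19 transporter calls, 13 held whichever PreGM array was left out. Those of Slc45a3, Slc40a1, Slco3a1, Abcd2, Atp13a3 and Kcnj2 did not, with adjusted p up to 0.165, most often without PreGM GFP+ array 1 (6 genes) or PreGM GFP- array 1 (5 genes). The count of transporters that fell was 4 when PreGM GFP- array 1, PreGM GFP- array 3 or PreGM GFP+ array 1 was left out, and 11 when PreGM GFP- array 2 was.

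**Figure D1:**
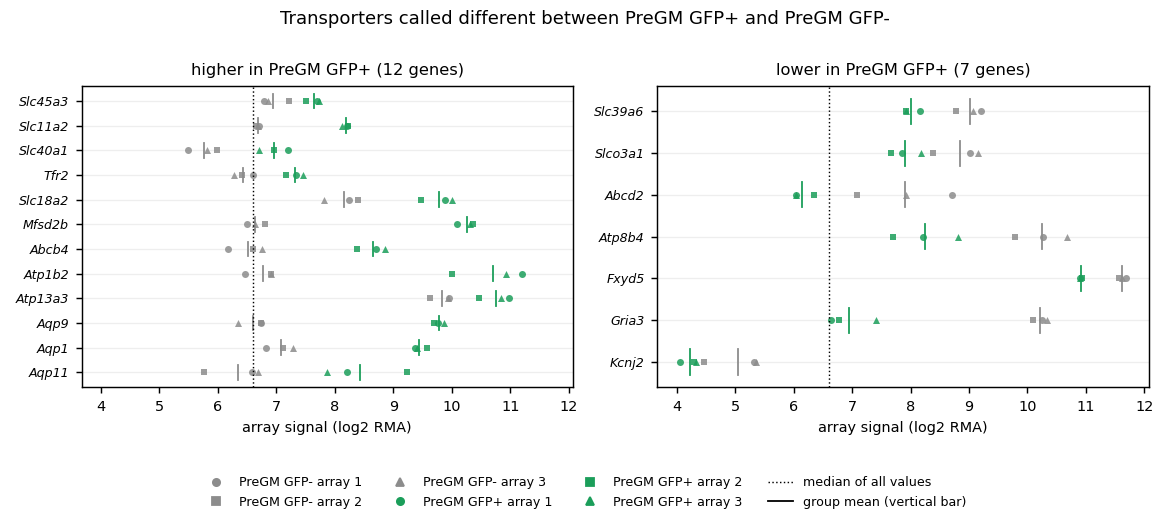
Log2 RMA signal on each PreGM array (horizontal axis) for the 12 transporters called higher (left) and the 7 called lower (right) in PreGM GFP+, with PreGM GFP- in grey, PreGM GFP+ in green, a symbol for each array and a vertical bar at each group mean. In Mfsd2b and Atp1b2 the green symbols lie more than 3 log2 units to the right of the grey ones, and in several genes the grey mean lies left of the dotted line at 6.61, the median of all values.

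Of the receptors, 22 of 794 genes rose and 38 fell. Those that fell included receptors for cytokines of granulocytes, monocytes and lymphocytes. Those that rose included 9 G protein-coupled receptors, 2 chains of the IgE receptor and surface proteins of red cells and platelets. Of 51 cytokine receptor genes, 6 fell and 1 rose. Il6st, the gp130 chain shared by interleukin 6 family receptors, read 9.81, 8.38 and 9.75 on the PreGM GFP- arrays and 6.88, 7.50 and 6.90 on the PreGM GFP+ arrays, a fall of 2.21 (SE 0.32, 4.64-fold lower, adjusted p = 0.00018) without overlap. Csf3r, the receptor of granulocyte colony-stimulating factor, read 8.54, 8.13 and 8.51 in PreGM GFP- and 6.90, 6.92 and 7.01 in PreGM GFP+. It fell by 1.45 (adjusted p = 1.95e-06), again with a clear gap between the groups. Il7r fell by 1.60, Il4ra by 1.20 and Ifnar2 by 0.97. The Il7r signal was 7.23, 6.91 and 5.91 in PreGM GFP-, lowest on array 3, and 5.29, 5.19 and 4.77 in PreGM GFP+. The receptor chains of interferon gamma moved in opposite directions: Ifngr1, which binds the ligand, read 10.77, 10.92 and 10.64 in PreGM GFP+ against 9.94, 8.52 and 10 in PreGM GFP- and rose by 1.29 (adjusted p = 0.0101), while Ifngr2, the second chain, read 8.70, 8.61 and 8.67 on the PreGM GFP- arrays and 7.05, 7.75 and 7.42 on the PreGM GFP+ arrays and fell by 1.25 (adjusted p = 0.0237). Among partners and relatives, Il6ra differed by -0.42, Ifnar1 by -0.52, Il3ra by 0.09, Csf2ra by 0.15 and Csf2rb by -0.27, none called. The erythropoietin receptor Epor had arrays apart (6.43, 6.98 and 7.01 and 7.30, 7.21 and 7.25) but its difference of 0.45 was not called (adjusted p = 0.102).

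Of 52 receptor tyrosine kinases, 3 fell and none rose. Flt3, the receptor for a growth factor of lymphoid and dendritic progenitors, read 10.28, 9.70 and 10.09 in PreGM GFP- and 6.78, 6.03 and 6.22 in PreGM GFP+. The groups lay more than 2 log2 units apart, a fall of 3.68 (SE 0.27, adjusted p = 1e-08). Csf1r, the receptor of macrophage colony-stimulating factor, fell by 1.65, and Met was called lower (-1.74) with both group means below the median, while Tek was higher with arrays apart (0.92, adjusted p = 0.0797). Kit showed no call (10.16, 9.07 and 10.13 and 10.61, 10.09 and 10.57). Of 28 TNF receptor family genes, Tnfrsf26, Cd27 and Tnfrsf1a fell, by 1.42, 1.03 and 0.99, and of 17 TGF-beta and BMP receptors, Tgfbr3 (betaglycan, a co-receptor) rose by 1.26 (adjusted p = 1.43e-05). Of 31 chemokine receptors, 1 was called: Ccr2, which draws monocytes out of the marrow, read 5.59, 5.67 and 5.58 in PreGM GFP+ against 9.14, 8.56 and 8.12 in PreGM GFP-, a fall of 3.0 (adjusted p = 0.000752).

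Receptors coupled to G proteins were called in both directions. Mc2r, the receptor of adrenocorticotropic hormone, read 4.23, 4.54 and 4.52 on the PreGM GFP- arrays and 7.71, 7.75 and 7.41 on the PreGM GFP+ arrays. The PreGM GFP- arrays stood at the bottom of the signal range and the PreGM GFP+ arrays above its median, a difference of 3.19 (SE 0.18, adjusted p = 6.42e-11). F2r, the thrombin receptor PAR1, read 7.92, 8.13 and 7.86 in PreGM GFP- and 9.57, 9.76 and 9.83 in PreGM GFP+ and rose by 1.75 (adjusted p = 1.68e-07). The adhesion receptor Adgrl2 rose by 2.48, and all 8 of its probe sets were higher, by 1.03 to 3.66. Receptors of sphingosine-1-phosphate moved in opposite directions. S1pr1 read 8.70, 8.87 and 8.51 in PreGM GFP+ against 7.36, 7.04 and 6.85 in PreGM GFP- and rose by 1.61 (adjusted p = 0.000869). S1pr3 read 7.53, 8.15 and 7.79 on the PreGM GFP- arrays and 5.53, 6.20 and 5.84 on the PreGM GFP+ arrays and fell by 1.97 (adjusted p = 0.00126), and neither showed overlap, while S1pr2 and S1pr4 differed by 0.24 and 0.01. The cannabinoid receptor Cnr2 and the ADP receptor P2ry1 rose by 1.20 and 0.85. Calcrl and its partner Ramp1, which together bind calcitonin gene-related peptide, fell by 1.53 and 0.86, with Ramp2 at -0.66 and Ramp3 at 0.30. The proton-sensing receptor Gpr65 read 9.74, 8.63 and 9.10 in PreGM GFP- and 6.93, 5.56 and 6.34 in PreGM GFP+, a fall of 2.88 (adjusted p = 0.000608), and Adgrl4, Gpr171 and Gpr160 fell by 1.93, 1.47 and 1.12.

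Of the 3 chains of the IgE receptor, 2 rose. The alpha chain Fcer1a read 7.16, 8.59 and 7.56 in PreGM GFP+ against 4.01, 4.50 and 4.45 in PreGM GFP-, and the beta chain Ms4a2, whose upstream stretch held the GATA matches, read 5.14, 5.51 and 5.06 on the PreGM GFP- arrays and 8.80, 9.43 and 8.64 on the PreGM GFP+ arrays. Both were apart in all arrays and rose by 3.45 and 3.72 (adjusted p = 7.6e-06 and 1.54e-08), and the gamma chain Fcer1g, which other Fc receptors share, was lower with arrays apart, at 8.93, 8.68 and 8.41 in PreGM GFP- and 8.03, 8.27 and 8.05 in PreGM GFP+, but not called (-0.56, adjusted p = 0.823). Of the proteases of mast cells and basophils, Gzmb (granzyme B, also of cytotoxic cells) read 5.31, 5.94 and 5.79 in PreGM GFP- and 6.41, 6.61 and 8.20 in PreGM GFP+ and rose by 1.39 (adjusted p = 0.00553) from a mean below the median, with PreGM GFP+ array 3 well above the other 2. Cpa3 differed by 1.10, Cma1 by 0.13, Tpsb2 by 0.12 and Mcpt8 by -1.32, none called. Of 140 toll-like, lectin and Fc receptor genes, 4 rose and 5 fell. Ly86 (MD-1, the partner of the toll-like protein RP105) read 5.71, 5.92 and 5.45 in PreGM GFP+ against 9.79, 10.10 and 10.07 in PreGM GFP-, a fall of 4.29 (SE 0.34, adjusted p = 2.76e-08) to signals below the median. Milr1 and Clec12a, both inhibitory receptors, fell by 3.55 and 3.54, and Sirpa, which binds CD47, fell by 1.45. Clec4d rose by 1.05 and Siglecf, a marker of eosinophils, by 0.55.

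Of 110 integrins and adhesion receptors, 6 rose and 8 fell. Cd55, which speeds the decay of complement convertases on blood cells, read 4.91, 4.58 and 5.14 on the PreGM GFP- arrays and 8.60, 9.37 and 8.19 on the PreGM GFP+ arrays. The gap between the groups exceeded 3 log2 units, with a difference of 3.84 (SE 0.34, adjusted p = 1.68e-07), and Cd59a, which blocks the last step of complement, rose by 2.04. Icam4, of the red cell surface, rose by 1.88 and Gp5, of the platelet glycoprotein Ib complex, by 1.53. Emb (embigin, a partner of lactate carriers) read 11.16, 11.31 and 11 in PreGM GFP- and 6.13, 8.81 and 6.54 in PreGM GFP+, a fall of 3.99 (adjusted p = 1.21e-05) in which the 3 PreGM GFP+ arrays spread widely below the others. The stem and progenitor antigen Cd34 read 8.62, 9.34 and 9.14 in PreGM GFP+ against 11.39, 11.07 and 11.28 in PreGM GFP- and fell by 2.21 (4.63-fold lower, adjusted p = 2.59e-05). Cd53, Cd93 and Sele fell by 3.37, 1.56 and 1.59, and the endothelial and myeloid adhesion molecule Pecam1 by 1.23. Of 59 scavenger, lipoprotein, Notch and guidance receptors, Plxnc1, a semaphorin receptor, rose by 2.20 (adjusted p = 4.04e-06), and Nrp1, Vldlr, Plxnb2, Scarb1 and Sorl1 fell, by 0.70 to 1.01. None of 43 nuclear receptors was called, and 3 had arrays apart (6.98%, against 12.3% over all genes), Vdr (-0.58) and Esr1 (-0.57) among them. Of the 60 receptor calls, 38 held whichever array was left out and 22 did not, with adjusted p up to 0.298. The latter included Ifngr1, Ifngr2, Ifnar2, Tnfrsf1a, Met, Calcrl, Ramp1, Adgrl2, Siglecf, Cd59a, Slamf1 and Pecam1. The count of receptors that fell was 25 without PreGM GFP- array 1.

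**Figure D2:**
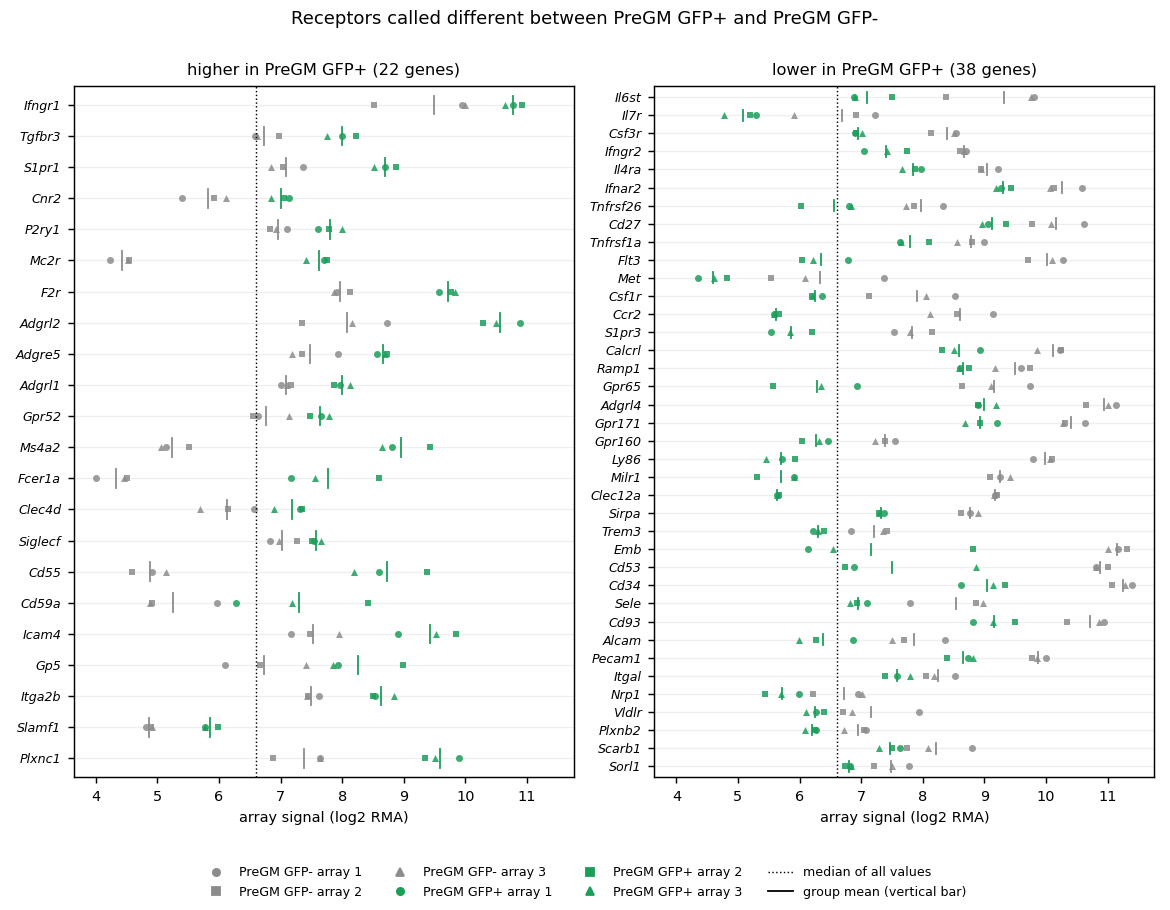
Log2 RMA signal on each PreGM array (horizontal axis) for the 22 receptors called higher (left) and the 38 called lower (right) in PreGM GFP+, drawn with grey for PreGM GFP-, green for PreGM GFP+, vertical bars for group means and a dotted line at the median of all values. Ms4a2, Fcer1a, Mc2r and Cd55 move from grey symbols left of the dotted line to green symbols right of it, and Flt3, Ly86, Milr1 and Clec12a do the opposite apart from 1 green Flt3 symbol.

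Signalling genes had 12 of 1173 higher and 19 lower, a share near that over all genes. Those that rose included subunits of G proteins, isoforms of protein kinase C and an adaptor of immune receptors, and those that fell included an adaptor of myeloid receptors and an annexin. Of 71 genes of heterotrimeric G proteins and their regulators, 3 rose and none fell. Gnb4, a beta subunit, read 7.20, 6.42 and 6.77 on the PreGM GFP- arrays and 9.09, 9.28 and 9.36 on the PreGM GFP+ arrays, a difference of 2.45 (SE 0.24, 5.46-fold, adjusted p = 5.67e-07) without overlap. Gna14, an alpha subunit of the Gq type, read 6.11, 6.67 and 6.37 in PreGM GFP- and 7.25, 7.95 and 7.66 in PreGM GFP+ and rose by 1.24. Rgs1, which shortens G protein signals, rose by 1.79 (adjusted p = 0.00602). The relatives Gnaq, Gna15, Gnb1 and Gnb2 differed by 0.39, 0.45, -0.41 and 0.05, and Rgs18, abundant in platelets, by 1.0 with overlap, none called.

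Of the protein kinase C isoforms, which answer to diacylglycerol, 2 rose. Prkch read 8.48, 10.83 and 8.60 in PreGM GFP+ against 4.55, 5.13 and 7.77 in PreGM GFP-, and Prkca read 6.40, 6.24 and 6.40 on the PreGM GFP- arrays and 7.24, 7.63 and 6.92 on the PreGM GFP+ arrays, with rises of 3.49 and 0.92 (adjusted p = 0.0462 and 0.0238). A second Prkch probe set showed a smaller difference of 0.92. Prkcd (-0.62, adjusted p = 0.131) and Prkcb (-0.32, adjusted p = 0.524) were lower with arrays apart and no call, and Prkce differed by 0.07. Marcks, a substrate of these kinases, fell by 1.52. In cyclic AMP signalling 1 of 75 genes was called: Prkar2b, a regulatory subunit of protein kinase A, rose by 0.98 (adjusted p = 0.00128), with Prkar2a at -0.41 and Prkar1a at -0.03.

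Among pathways downstream of cytokine and immune receptors, Trib2, a pseudokinase that directs protein degradation, read 6.37, 6.84 and 6.71 in PreGM GFP- and 8.92, 8.20 and 9.45 in PreGM GFP+. It rose by 2.22 (4.66-fold, adjusted p = 6.35e-06), while Mapkapk2 and Map3k1 fell by 1.10 and 0.77, the 3 calls among 104 MAP kinase genes. Lat, the adaptor that couples immune receptors such as the IgE receptor to phospholipase C, read 8.78, 9.27 and 8.63 in PreGM GFP+ against 7.75, 8.05 and 7.62 in PreGM GFP-, a rise of 1.09 (adjusted p = 0.0247), and Grb10 rose by 1.07. Tyrobp, the DAP12 adaptor of myeloid receptors, fell by 1.81, with 11.32, 11.37 and 11.27 in PreGM GFP- and 8.93, 9.93 and 9.68 in PreGM GFP+, and Themis2 by 0.86. The kinase Syk (-0.06), and the adaptors Lcp2 (0.64) and Lat2 (-0.15), were not called. Pik3ap1, which links receptors to phosphoinositide 3-kinase, read 8.05, 7.95 and 8.18 on the PreGM GFP- arrays and 7.06, 6.61 and 6.96 on the PreGM GFP+ arrays and fell by 1.19 (adjusted p = 5.36e-06), and Sgk3 and Plcg2 fell by 1.21 and 0.95. Vav3 read 9.25, 8.02 and 8.91 in PreGM GFP- and 6.95, 6.27 and 7.32 in PreGM GFP+, a fall of 1.88 (adjusted p = 0.000847), and Elmo1 and Arhgef6 fell by 1.16 and 1.12, with Vav1 and Vav2 at -0.26 and 0.07. Of calcium and annexin genes, Anxa3 read 6.04, 7.15 and 6.55 in PreGM GFP+ against 9.51, 9.32 and 9.89 in PreGM GFP- and fell by 3.0 (adjusted p = 2.66e-06). Camk2d and Nfatc1 fell by 1.27 and 0.57, and S100a10 rose by 1.06. The NF-kappaB subunit Rel and the innate sensor Nod1 fell by 1.44 and 0.72, and the phosphatase Ptpn14 rose by 0.94 while the phosphatase-binding Pstpip1 fell by 1.49.

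Of 228 genes for secreted ligands, Ccl17 was called higher (0.79) with both group means below the median, and Ccl9 and Ccl5 fell by 1.53 and 1.44. The platelet chemokine Pf4 read 4.50, 4.66 and 4.83 on the PreGM GFP- arrays and 5.60, 6.29 and 7.32 on the PreGM GFP+ arrays, without overlap and without a call (1.74, adjusted p = 0.0836). Both of its group means lay below the median. No gene was called among 30 JAK-STAT genes, 68 Ras and Rap regulators or 70 SMAD, Wnt and Notch transducers, where arrays were apart in 6, 11 and 11 genes, Jak2 (0.95) and Bcl6 (-0.71) among them. The shares apart were 20%, 16.2% and 15.7%, against 12.3% over all genes. Of the 31 signalling calls, 15 held whichever array was left out. The other 16, Prkch, Prkca, Marcks, Lat, Grb10, Sgk3, Plcg2, Arhgef6, Map3k1, Mapkapk2, Themis2, Rel, Nod1, Nfatc1, S100a10 and Ccl17, reached adjusted p up to 0.293, and all 16 were lost without PreGM GFP- array 1. The count of signalling genes that fell was 9 without that array, and 12 and 11 without PreGM GFP+ array 1 and array 2. The count that rose was 8 when either PreGM GFP- array 1 or PreGM GFP+ array 3 was left out.

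**Figure D3:**
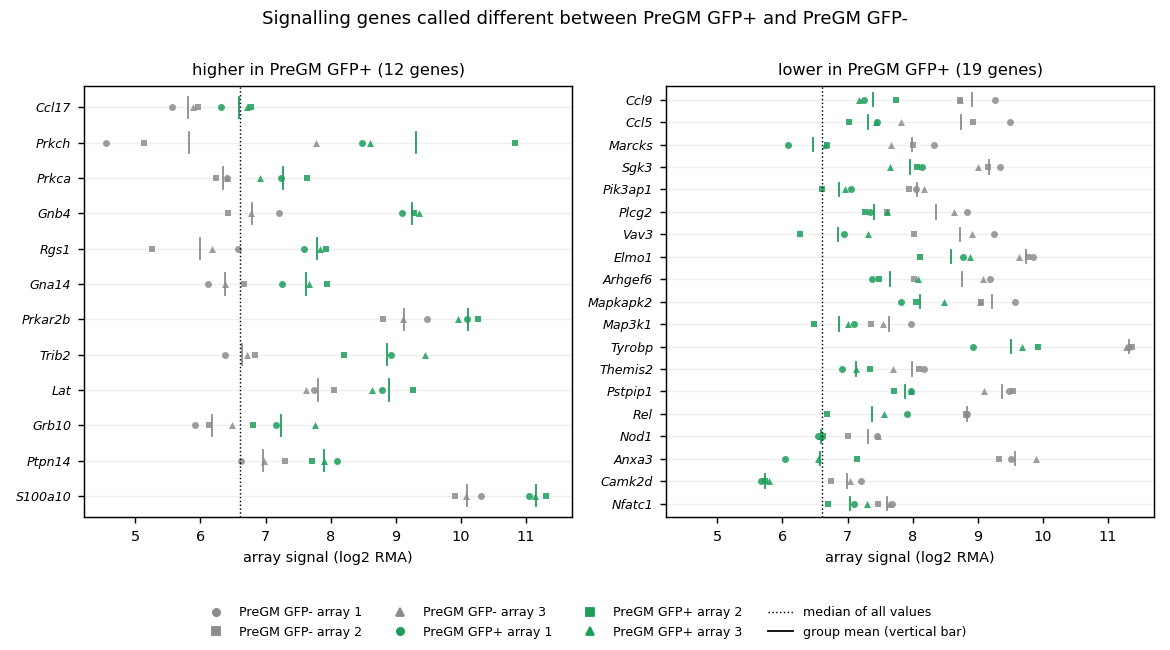
Log2 RMA signal on each PreGM array (horizontal axis) for the 12 signalling genes called higher (left) and the 19 called lower (right) in PreGM GFP+, with PreGM GFP- in grey, PreGM GFP+ in green, group means as vertical bars and a dotted line at the median of all values. The 3 green symbols of Gnb4 and of Trib2 lie well to the right of the grey ones, whereas the grey symbols of Prkch are spread wide.

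In metabolism, 23 of 1085 genes rose and 25 fell. Those that rose included 3 carbonic anhydrases, a ceramide glucosyltransferase and a glutathione transferase, and those that fell included 5 glycolytic enzymes and 2 subunits of the phagocyte oxidase. Of 16 carbonic anhydrases, which interconvert carbon dioxide and bicarbonate, 3 rose and none fell. Car1 read 5.72, 7.20 and 6.50 in PreGM GFP- and 11.89, 12.02 and 12.12 in PreGM GFP+, a rise of 5.54 (SE 0.33, adjusted p = 1.68e-10) from a mean below the median, and its PreGM GFP- arrays spread over more than 1 log2 unit around the median signal. Car2 read 10.23, 10.06 and 10.14 in PreGM GFP+ against 8.62, 8.65 and 8.26 in PreGM GFP- and rose by 1.64 (3.11-fold, adjusted p = 0.000346), and Car13 rose by 1.47 from a mean below the median. Car3, Car4 and Car8 differed by 0.15, 0.11 and 0.00.

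Glycolysis and the pentose phosphate pathway had 5 of 47 genes lower and none higher, and the arrays lay apart in 15 lower and 3 higher genes (38.3%, against 12.3% over all genes). The median difference of the list was -0.08, against 0.04 over all genes. Hk3, a hexokinase of granulocytes, read 8.78, 8.17 and 8.13 on the PreGM GFP- arrays and 7.03, 6.83 and 7.05 on the PreGM GFP+ arrays, a fall of 1.39 (2.63-fold lower, adjusted p = 0.000158). Pgam1 read 9.19, 8.98 and 8.93 in PreGM GFP- and 7.80, 7.78 and 7.53 in PreGM GFP+ and fell by 1.33 (adjusted p = 1.46e-05), and Pfkp, Pkm and Pgk1 fell by 0.93, 0.82 and 0.67. A second Pkm probe set differed by -0.49. Some probe sets of Pgam1 and of Pgk1 hold identical values on the arrays and may share sequence. Tpi1 (-0.74), Aldoa (-0.45), Hk2 (-0.69) and Pgd of the pentose phosphate branch (-1.11) were lower with arrays apart and no call, whereas Hk1 (0.14) and Ldha (0.11) overlapped. The 3 higher genes with arrays apart were Pgm2 (0.99), Bpgm (0.68) and Pklr (0.37), none called. None of 93 oxidative phosphorylation genes was called, with 9 apart (9.68%) and a median difference of -0.09. Acss2, which makes acetyl-CoA from acetate, rose by 0.88, and Acadl, of fatty acid oxidation, by 1.08.

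Sphingolipid and phospholipid enzymes had 5 of 87 genes higher and 3 lower. Ugcg, which adds glucose to ceramide, read 9.89, 10.08 and 9.84 in PreGM GFP+ against 8.60, 7.36 and 8.06 in PreGM GFP-, a rise of 1.93 (SE 0.28, 3.8-fold, adjusted p = 0.000181) with all PreGM GFP+ arrays above 9. Sgms1 and Sgms2, both sphingomyelin synthases, moved in opposite directions, by 0.94 and -1.05 (adjusted p = 0.0492 and 0.0377). Sgpl1, which breaks down sphingosine-1-phosphate, read 7.95, 7.24 and 8.28 on the PreGM GFP- arrays and 6.87, 6.38 and 7.04 on the PreGM GFP+ arrays, a fall of 1.06 (adjusted p = 0.0305), and Sphk1, which makes it, was higher with arrays apart but not called (0.41, adjusted p = 0.123). The phosphatidate phosphatases Lpin1 and Lpin2 rose by 0.94 and 1.36 and Pcyt1b, of phosphatidylcholine synthesis, by 1.15, while the ceramide synthase Cers6 fell by 1.10 and the triglyceride lipase Pnpla2 by 0.92. In the leukotriene pathway Alox5, which makes leukotriene A4, read 6.12, 6.09 and 6.24 in PreGM GFP- and 6.92, 7.06 and 7.53 in PreGM GFP+ and rose by 1.02 (adjusted p = 0.000869). Lta4h, which turns leukotriene A4 into B4, read 7.54, 7.15 and 7.38 in PreGM GFP+ against 8.60, 7.75 and 8.0 in PreGM GFP- and fell by 0.76 (adjusted p = 0.0409), while Ltc4s, of the branch to C4, differed by 0.18 and Alox5ap by -0.71.

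Redox and detoxification enzymes had 5 of 260 genes higher and 5 lower. Gstm5, a glutathione transferase, read 8.48, 6.56 and 6.96 on the PreGM GFP- arrays and 10.26, 10.41 and 10.34 on the PreGM GFP+ arrays, a rise of 3.0 (8.02-fold, adjusted p = 0.00159) with PreGM GFP- array 1 well above the other 2 arrays of its group. Ces2g, a carboxylesterase, read 5.84, 6.25 and 5.88 in PreGM GFP- and 8.22, 9.54 and 9.46 in PreGM GFP+ and rose by 3.08 (adjusted p = 1.72e-08). Blvrb, the flavin and biliverdin reductase of red cells, rose by 1.57 (2.97-fold, adjusted p = 1.47e-05), Txnip by 1.40, and Gclm, the modifier subunit of glutathione synthesis, by 0.92, with its catalytic partner Gclc at -0.08. Ncf1, the p47 subunit of the phagocyte oxidase, read 6.37, 7.11 and 6.64 in PreGM GFP+ against 8.60, 8.72 and 8.08 in PreGM GFP- and fell by 1.76 (adjusted p = 8.94e-05), and the p40 subunit Ncf4 fell by 0.85. The catalytic subunit Cybb was lower with arrays apart (-1.07, adjusted p = 0.346) and Cyba differed by -0.17. Mgst2, a membrane glutathione transferase, fell by 2.83 from 9.94, 8.84 and 8.04 to 6.21, 6.12 and 5.99, and Dhrs3 fell by 1.60. Mgst1 was called lower (-1.35) with both group means below the median.

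Of 35 genes of heme and iron handling, a list that leaves out the iron carriers above, none was called higher and 3 fell. Arrays lay apart in 2 higher and 6 lower genes (22.9%, against 12.3% over all genes). The secreted iron carrier transferrin, Trf, read 9.30, 9.92 and 8.87 on the PreGM GFP- arrays and 7.51, 7.68 and 7.68 on the PreGM GFP+ arrays, a fall of 1.74 (adjusted p = 0.00011), Hp (haptoglobin) fell by 2.47, and Alas1, the housekeeping first enzyme of heme synthesis, by 1.47. Alas2, its red cell form, and Fech, the last enzyme, differed by 0.26 and 0.20, and Cpox by 0.95 with arrays apart (adjusted p = 0.0977). Hdc, which makes histamine, read 7.15, 6.35 and 6.98 in PreGM GFP- and 7.95, 7.72 and 8.17 in PreGM GFP+ and rose by 1.12 (adjusted p = 0.000354), and Kmo, of tryptophan breakdown, fell by 1.85. Among 154 glycosyl- and sulfotransferases 6 rose and 5 fell. St8sia6 and St8sia4, which both add sialic acid to sialic acid, moved in opposite directions. St8sia6 read 8.49, 8.07 and 8.61 in PreGM GFP+ against 5.50, 5.90 and 5.61 in PreGM GFP- and rose by 2.72 (adjusted p = 1.94e-06). St8sia4 read 9.74, 8.94 and 9.41 on the PreGM GFP- arrays and 8.17, 7.94 and 7.73 on the PreGM GFP+ arrays and fell by 1.42 (adjusted p = 0.000809). Hyal3, Galnt6, Galnt1 and St3gal1 rose, by 0.76 to 1.23, and B3gnt5, B4galt4, Extl3 and Chsy1 fell, by 0.99 to 1.68. A second St3gal1 probe set showed a difference of 0.09. Of 85 purine and pyrimidine genes 1 fell, Umps, by 0.96, while the arrays lay apart in 13 lower and 4 higher genes (20%, against 12.3% over all genes).

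Of the 48 metabolic calls, 22 held whichever array was left out, among them Car1, Car2, Hk3, Pgam1, Ugcg, Alox5, Gstm5, Ces2g, Blvrb, Ncf1, Mgst2, Trf, Hdc, St8sia6 and St8sia4. The other 26, among them Car13, Pfkp, Pkm, Acss2, Acadl, Sgms1, Sgms2, Sgpl1, Lta4h, Kmo, Gclm and Umps, reached adjusted p up to 0.290, and 19 of them were lost without PreGM GFP+ array 1, 19 without PreGM GFP+ array 2 and 18 each without PreGM GFP+ array 3 and PreGM GFP- array 1. The count of metabolic genes that rose was 14 without PreGM GFP+ array 3, and the count that fell was 12 when array 1 of either group was left out and 16 without PreGM GFP+ array 2.

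**Figure D4:**
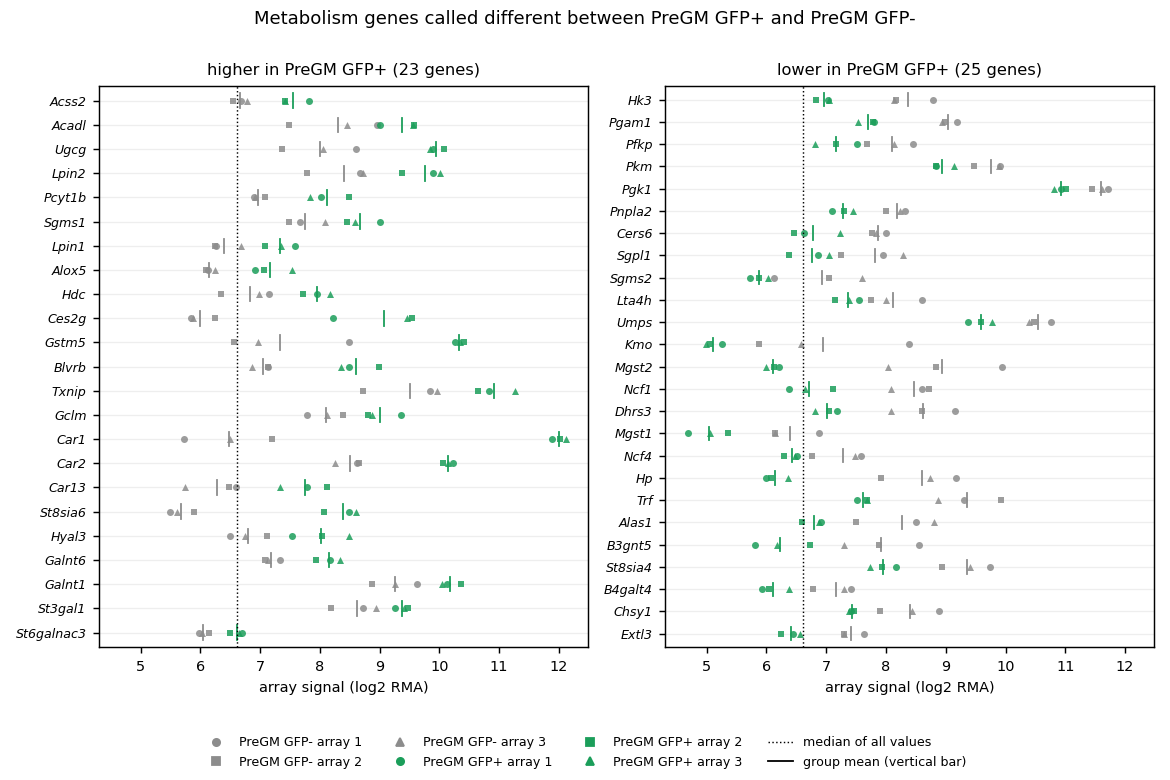
Log2 RMA signal on each PreGM array (horizontal axis) for the 23 metabolic genes called higher (left) and the 25 called lower (right) in PreGM GFP+, with PreGM GFP- in grey, PreGM GFP+ in green, group means as vertical bars and a dotted line at the median of all values. Car1 shows the widest gap, with green symbols near 12 and the 3 grey symbols far to their left, and in Kmo and Gstm5 1 grey symbol lies far from the other 2.

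The same reporter split was made one gate further, in GMP, with other arrays. GMP GFP+ against GMP GFP- gave 1449 called genes of 19938 (7.27%), 642 higher (3.22%) and 807 lower (4.05%). Of the 69 listed genes that rose in PreGM GFP+, 66 were also higher in GMP GFP+ and 47 were called so, and of the 89 that fell, 81 were also lower and 49 called so. None was called in the opposite direction. A test of the difference between the PreGM and the GMP effect called 140 of 19938 genes (0.702%), and 23 of the 158 listed genes. The 158 were picked by their PreGM difference, which is part of this test. That choice can raise their share of calls and favours genes with the larger difference in PreGM. The GMP counts fell to 320 higher without GMP GFP+ array 3 and 424 higher without GMP GFP- array 2, and to 489 and 529 lower without GMP GFP+ array 1 and GMP GFP- array 2.

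Of the genes that rose, the reporter difference was larger in PreGM for 6, among them the lipid exporter Mfsd2b and the water channel Aqp1. Mfsd2b differed by 3.61 in PreGM and 0.98 in GMP (adjusted p of the difference = 6.01e-08), Aqp1 by 2.37 and 0.67 (adjusted p = 0.000141), Plxnc1 by 2.20 and 0.25 (adjusted p = 0.00269), and Ces2g, F2r and Prkar2b also differed in this way. It was larger in GMP for 4 genes that rose, both called IgE receptor chains, the vesicle monoamine carrier Slc18a2 and Alox5. Fcer1a differed by 3.45 in PreGM and 6.30 in GMP (adjusted p = 0.00866), Ms4a2 by 3.72 and 5.37 (adjusted p = 0.0449), Slc18a2 by 1.63 and 3.96 (adjusted p = 3.07e-05) and Alox5 by 1.02 and 2.76 (adjusted p = 0.000129). Among the falls, Flt3, Emb, Milr1, Clec12a and Cd53 dropped more in PreGM, Cd53 by 3.37 against a difference of 0.38 in GMP (adjusted p = 9.73e-05), and Trem3 and Sgms2 dropped more in GMP. Flt3 averaged 7.34 in GMP GFP- against 10.02 in PreGM GFP-.

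**Figure D5:**
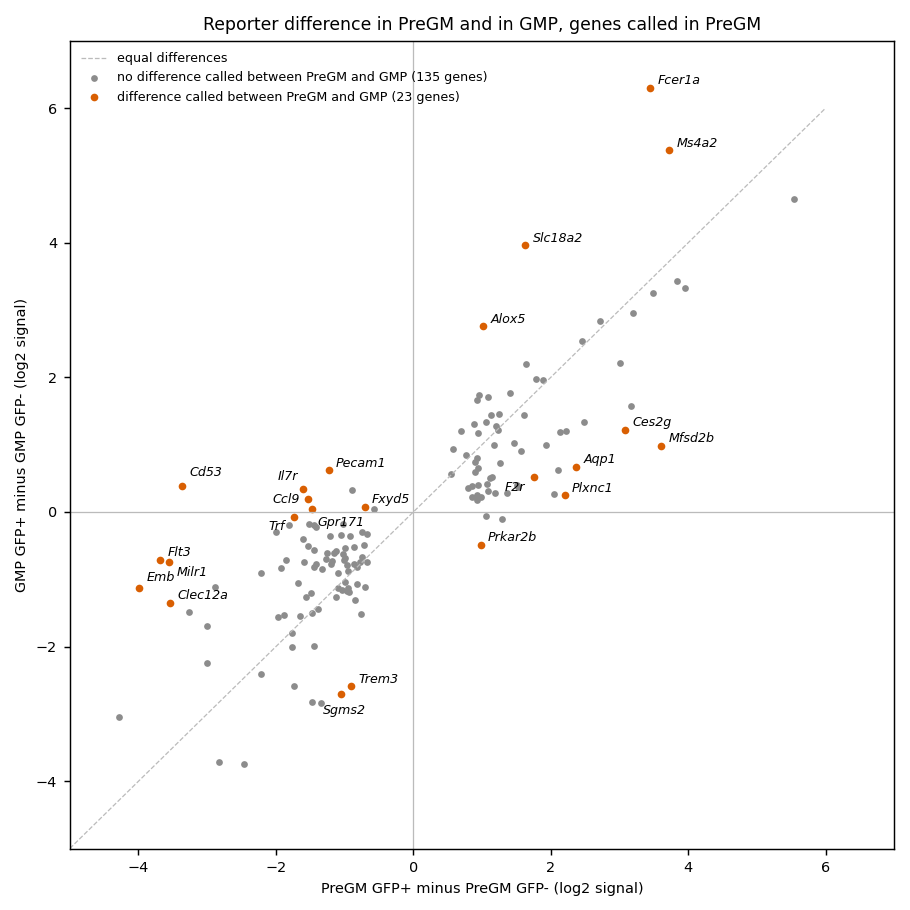
Difference in log2 signal between reporter-positive and reporter-negative cells in PreGM (horizontal axis) and in GMP (vertical axis) for the 158 listed genes called in PreGM, one point per gene, with the dashed line at equal differences. The 23 named points in orange are those whose effect differed between the compartments (limma, adjusted p under 0.05), and the 135 grey points are those where no such difference was called.

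Across the 8 groups, the genes that rose reached their highest mean signal in PreGM GFP+ (28 of 69), PreMegE (18), GMP GFP+ (17) or HSC GFP- (6). The genes were picked by their PreGM difference, so the places of the PreGM groups in these counts are partly set by that choice. Aqp11 averaged 8.44 ± 0.72 (SD, n = 3) in PreGM GFP+ against 6.78 ± 0.64 (n = 3) in PreMegE and 6.92 ± 0.65 (n = 3) in GMP GFP+. Slc11a2 averaged 8.19 ± 0.05 in PreGM GFP+ and 7.67 ± 0.53 in PreMegE. The means of Mfsd2b in PreGM GFP+ (10.25 ± 0.15) and PreMegE (10.28 ± 0.39) lay within the spread of the replicates. Car2 and Rgs1 were highest in HSC GFP-, at 10.50 ± 0.09 and 9.16 ± 0.10. The genes that fell were highest in GMP GFP- (33 of 89), CLP (20), LMPP (15), PreGM GFP- (15), HSC GFP- (5) or GMP GFP+ (1), and lowest in PreMegE (37) or PreGM GFP+ (28) for the most part. Il7r and Kmo, which fell from middling signals in PreGM GFP-, were highest in CLP at 9.94 ± 0.36 and 9.73 ± 1.13 (n = 3). Trf had its highest mean in PreGM GFP- (9.37 ± 0.53, against 8.69 ± 0.39 in LMPP), though the SD ranges overlapped. Slc39a6 and S1pr3 also had their highest means in PreGM GFP-. These lay within the spread of the replicates of LMPP for Slc39a6 (9.02 ± 0.22 and 8.92 ± 0.24) and of GMP GFP- for S1pr3 (7.82 ± 0.31 and 7.62 ± 0.66).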

How the data were processed

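RNA of sorted bone marrow cells was labelled as biotin-labelled cRNA and hybridised to Affymetrix Mouse Gene 1.1 ST arrays, per the labels. The submitters' processing notes name RMA and oligo; the authors deposited 1 log2 value per probe set and array, and base 2 was inferred from the range of the values. The annotation that named the genes was made for version 1.0 ST. It gives 1 gene to 21789 of 35556 probe sets, several to 1621 and none to 12146; a current gene record was found for 21698, with 0 changes of symbol. Where a gene had several probe sets (999 of 19938 genes), the brightest on average across the 26 arrays stood for it.

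limma 3.58.1 (R 4.3.3) fitted the 8 groups over all 26 arrays, with lmFit and eBayes and Benjamini-Hochberg adjustment over all genes. Genes with an adjusted p under 0.05 are said to be called, and arrays were apart where all values of one group exceeded all of the other. The fit was tested on simulated data. The 52 gene lists of the 4 classes, the marker lists, the members and the tests were chosen with earlier results of these data known. Genes were named by this rule: per list up to 5 called genes with arrays apart in each direction, by size, with their relatives, the reporter and gate genes, listed markers, and up to 2 uncalled genes per direction with arrays apart. Alternatives were the PreGM arrays alone, array weights, median centring, a further quantile normalisation, dim genes left out, the mean of all probe sets, a robust trend, a replicate block and each array left out. Neither labels nor values give scan dates or batches, so none was modelled. The reporter-positive stem cells named in the design were not analysed here. The number of arrays limits the precision.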

Additional observations from a re-analysis of the deposited data

Results flagged for a closer look

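The reporter effect differed between PreGM and GMP, by limma's test of the difference, in 23 of the 158 listed genes. These 158 were picked by their PreGM difference, which is part of that test. The value given is the PreGM difference minus the GMP difference in log2 signal. It was above 0 in Mfsd2b (2.64), Plxnc1 (1.95), Ces2g (1.86), Aqp1 (1.70), Prkar2b (1.46) and F2r (1.23), which rose more in PreGM, and in Trem3 (1.68) and Sgms2 (1.66), which fell more in GMP. It was below 0 in Fcer1a (-2.85), Slc18a2 (-2.32), Alox5 (-1.74) and Ms4a2 (-1.65), which rose more in GMP. It was also below 0 in genes that fell in PreGM and fell less, or did not fall, in GMP: Cd53 (-3.75), Flt3 (-2.97), Emb (-2.87), Milr1 (-2.81), Clec12a (-2.18), Il7r (-1.94), Pecam1 (-1.84), Ccl9 (-1.72), Trf (-1.67), Gpr171 (-1.51) and Fxyd5 (-0.79). Among these, Cd53, Pecam1, Il7r, Ccl9, Gpr171 and Fxyd5 had GMP differences of 0.38, 0.62, 0.34, 0.19, 0.04 and 0.08, on the other side of 0, and none of these was called in GMP. Il7r averaged 5.09 in GMP GFP- and 5.43 in GMP GFP+, both below the median of all values, and Flt3 averaged 7.34 in GMP GFP- against 10.02 in PreGM GFP-.

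In 7 listed genes 1 of the 4 GMP GFP- arrays lay far from the others by Dixon's test, and chance alone marks about 1 in 20 groups. Its log2 signal was 6.69 in Atp1b2, 4.46 in Fcer1a, 7.13 in Galnt6, 5.97 in St6galnac3, 9.12 in Tnfrsf26, 8.62 in Vav3 and 5.74 in Vldlr. These values enter the GMP comparison and not the PreGM one.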

How the results depend on the processing

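The counts depended on how the spread was estimated. With the PreGM arrays alone, 89 genes were called higher and 128 lower in PreGM GFP+, and with array weights 93 and 120. For the classes these 2 settings gave, in that order, 6 and 6 signalling genes higher, 11 and 8 lower, and 11 and 11 metabolic genes higher, 14 and 14 lower. The PreGM arrays alone gave 4 transporters lower, median centring 11, and array weights 20 receptors lower. In GMP, array weights gave 1249 higher and 1550 lower, leaving out dim genes 424 higher, and a further quantile normalisation 505 lower. The other planned settings that kept all arrays left each of these counts within 1.5 times its value.

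With 1 array left out, calls ranged from 118 to 168 higher and 134 to 298 lower in PreGM, and from 320 to 802 higher and 489 to 925 lower in GMP. Genes whose arrays did not overlap ranged from 1784 to 4146 higher and 1644 to 2428 lower, since groups of fewer arrays overlap less. For the classes the ranges were 10 to 15 transporters higher and 4 to 11 lower, 18 to 21 receptors higher and 25 to 40 lower, 8 to 12 signalling genes higher and 9 to 24 lower, and 14 to 22 metabolic genes higher and 12 to 32 lower. The difference between the PreGM and GMP effects was called in 99 to 145 genes. Without GMP GFP- or GMP GFP+ arrays, an alternative chosen after seeing the data, it was 110 to 134.

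Of Gata1 and the 158 listed genes, none changed direction under any of these settings, 70 kept the call under all of them and 89 lost it under at least 1. For the replicate block, deviations of same-numbered arrays correlated at -0.0864, 0.0794 and 0.162, so the numbers were not taken to pair the samples; with replicate number as a block, 178 genes were called higher and 226 lower. Signals under the median of all values limit the genes that start or end there, also those not marked so where they are named.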
